A study of Arabidopsis thaliana with 33 samples.

Results

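ACO1 (AT2G19590) encodes an ACC oxidase of Arabidopsis, and its single probe set was followed over all 33 arrays of the series, as 1 gene out of 22646 probe sets tested. The gene was chosen by its locus, since the symbol ACO1 is also used for an aconitase. The platform annotation gives no gene for this probe set, so its assignment to AT2G19590 rests on a table of the study. That table lists genes the study called on these arrays, so the direction of ACO1 is not independent of that choice.

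ACC oxidase carries out the last step of ethylene synthesis. It converts 1-aminocyclopropane-1-carboxylic acid (ACC), which ACC synthases make from S-adenosylmethionine, to ethylene, and the reaction consumes molecular oxygen. Ethylene is perceived by receptors of the endoplasmic reticulum, and the signal passes through EIN2 to the transcription factor EIN3. In submerged organs the gas is trapped by the surrounding water, and ethylene is a well known signal of plants under flooding and low oxygen.

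The plants were 10 d seedlings of a single ecotype, Wassilewskija (WS), raised at 97 kPa in constant light and then held for 24 h in Low Pressure Growth Chambers with carbon dioxide at 0.05 kPa. The 6 atmospheres were 25 kPa (oxygen at 5 kPa), 97 kPa/HypOx (full pressure, oxygen labelled 5.1 kPa), 50 kPa (oxygen at 10 kPa), 25 kPa/NormOx and 50 kPa/NormOx (low pressure with oxygen restored to 21 kPa), and the 97 kPa control (oxygen at 21 kPa), so that the loss of oxygen could be told apart from the loss of pressure. Roots had 3, 3, 3, 1, 2 and 3 arrays in that order, and shoots had 3, 2, 3, 3, 4 and 3. The methods describe 3 chambers per atmosphere with 10 plates each, and RNA from about 12 plants of a plate for each array. The fourth shoot array at 50 kPa/NormOx has no chamber given, so p-values measure the spread between arrays, part of which may be technical.

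Every value below is a log2 value from Robust Multi-chip Average (RMA) normalization as deposited, made for roots and shoots apart. One array in each organ stood apart from the rest. The average r with arrays of its own organ was 0.884 for Root 97 kPa replicate 1, where the rest had 0.966 to 0.980. For Shoot 50 kPa/NormOx replicate 1 it was 0.898, where the rest had 0.974 to 0.983. The organ labels were checked on the root and shoot marker genes with a named probe set, 3 of 14. BGLU23 and EXPA7 were higher in every root array than in any shoot array with 1 exception, as EXPA7 reached 7.11 in Shoot 50 kPa/NormOx replicate 1 and 6.70 in the lowest root array. PSAD1, a photosystem I subunit whose probe set was named by a table of the study, was higher in every shoot array than in any root array.

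In roots ACO1 was high in both atmospheres with oxygen near 5 kPa, intermediate at 50 kPa, and low wherever oxygen was at 21 kPa. The 3 root arrays at 25 kPa gave 9.46, 9.62 and 9.51, the 3 at 97 kPa/HypOx gave 9.48, 9.66 and 9.83, and the 3 at 50 kPa gave 8.30, 8.10 and 8.41. The single array at 25 kPa/NormOx gave 7.42, the 2 at 50 kPa/NormOx gave 7.08 and 7.76, and the 3 at 97 kPa gave 7.82, 7.74 and 7.49. The 25 kPa and 97 kPa/HypOx arrays overlapped each other and lay above all others. All 3 arrays at 50 kPa lay above all 6 arrays with oxygen at 21 kPa. How many of all probe sets separate in this way was not counted. Among the 6 arrays with oxygen at 21 kPa, the 50 kPa/NormOx arrays overlapped the controls, and the single 25 kPa/NormOx array lay just below them.

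**Figure D1:**
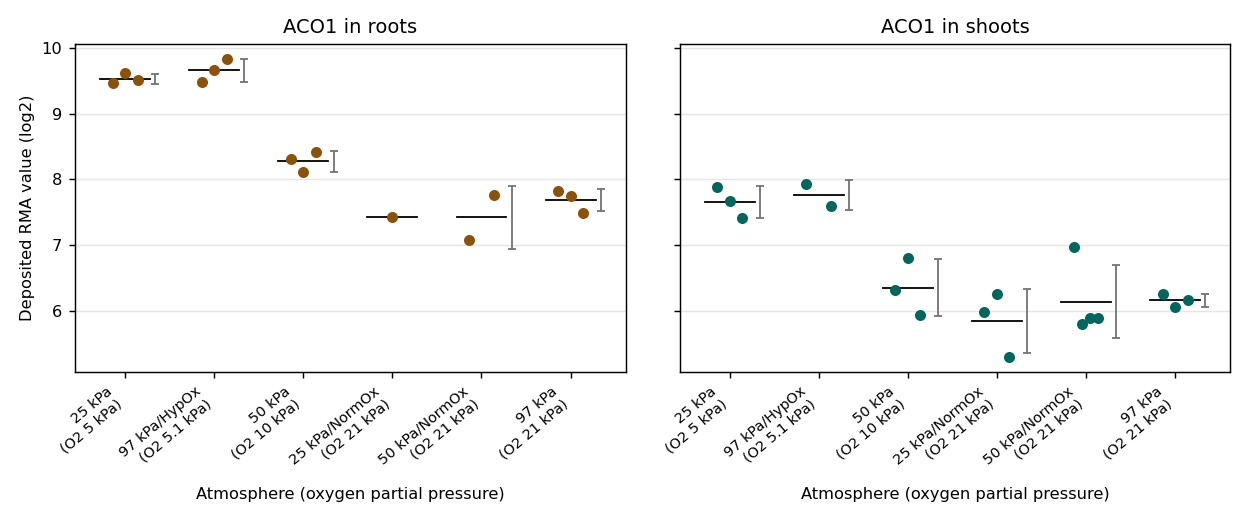
ACO1 on each array, as the deposited RMA value (log2), in roots (left) and shoots (right), by atmosphere with its oxygen partial pressure. Points are arrays, horizontal lines are group means and grey bars are 1 SD; Root 25 kPa/NormOx has 1 array and no bar. The 6 root arrays with oxygen near 5 kPa lie between 9.46 and 9.83, and the 5 such shoot arrays between 7.40 and 7.92.

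Ordered by mean, the root groups ran from 97 kPa/HypOx (9.66 ± 0.18, SD, n = 3) and 25 kPa (9.53 ± 0.08, n = 3) to 50 kPa (8.27 ± 0.16, n = 3), then 97 kPa (7.68 ± 0.17, n = 3), 25 kPa/NormOx (7.42, n = 1) and 50 kPa/NormOx (7.42 ± 0.48, n = 2). The first and the second of these differed by less than their spread. The 97 kPa mean was 0.26 above both NormOx values, within the spread at 50 kPa/NormOx, and 25 kPa/NormOx has no spread of its own. The steps on either side of 50 kPa were larger than the spread of the arrays. The pooled SD of ACO1 within root groups was 0.214, close to the median of 0.228 over all probe sets.

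In shoots the same 2 atmospheres were high, and the intermediate level at 50 kPa was not seen. The 3 shoot arrays at 25 kPa gave 7.89, 7.67 and 7.40, the 2 at 97 kPa/HypOx gave 7.92 and 7.60, and the 3 at 50 kPa gave 6.31, 6.80 and 5.94. The 3 arrays at 25 kPa/NormOx gave 5.97, 6.26 and 5.30, the 4 at 50 kPa/NormOx gave 6.96, 5.80, 5.89 and 5.89, and the 3 at 97 kPa gave 6.25, 6.06 and 6.16. The 5 arrays with oxygen near 5 kPa lay above the other 13, and the 50 kPa arrays lay among those with oxygen at 21 kPa. The value of 6.96 at 50 kPa/NormOx belongs to replicate 1, the array that stood apart over all probe sets. EXPA7 was at 7.11 on the same array and at 4.33 to 4.99 on the other 3 of its group. BGLU23, the other root marker, was at 8.90 on this array, within the 8.14 to 9.05 of those 3. Whether root material has a part in the ACO1 value of this array was not tested.

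By mean, the shoot groups were ordered 97 kPa/HypOx (7.76 ± 0.23, SD, n = 2), 25 kPa (7.65 ± 0.24, n = 3), 50 kPa (6.35 ± 0.43, n = 3), 97 kPa (6.16 ± 0.10, n = 3), 50 kPa/NormOx (6.13 ± 0.55, n = 4) and 25 kPa/NormOx (5.84 ± 0.49, n = 3). Only the step between 25 kPa and 50 kPa exceeded the spread of the arrays, and no other pair of neighbours in this order differed beyond it. ACO1 was more variable here than in roots, with a pooled SD of 0.406, and 87.6% of probe sets had a smaller one in shoots. Without Shoot 50 kPa/NormOx replicate 1, the difference of that group from 97 kPa was -0.30, in place of -0.03.

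In roots ACO1 was higher with oxygen near 5 kPa than in the 97 kPa control, both at reduced and at full total pressure. In 1 limma fit of all root arrays, ACO1 was 1.84 higher on the log2 scale at 25 kPa than at 97 kPa (SE 0.17, adjusted p = 0.0012), 3.59-fold with a 95% interval of 2.77 to 4.66. At 97 kPa/HypOx it was 1.97 higher than at 97 kPa (SE 0.17, adjusted p = 0.000701), 3.92-fold with an interval of 3.03 to 5.08. Adjusted p-values are limma's after Benjamini-Hochberg adjustment over all probe sets of that comparison. A call follows the threshold of the study, an unadjusted p under 0.01 with a log2 difference of at least 1 in size, and both root differences passed it. In the upward direction 0.83% of all probe sets passed it at 25 kPa and 0.601% at 97 kPa/HypOx. An adjusted p under 0.05 with a higher level was reached by 0.296% and 0.393%.

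Among all 22646 probe sets, ACO1 ranked 29 by its rise and 4 by p-value in roots at 25 kPa, and 29 and 3 at 97 kPa/HypOx. Without Root 97 kPa replicate 1, on which both differences rest in part, they were 1.91 (adjusted p = 0.00218) and 2.04 (adjusted p = 0.000782). The shoot marker PSAD1 moved with the roots at 25 kPa, at 7.43, 7.07 and 7.49 there, against 5.88, 6.69 and 6.06 at 97 kPa (difference 1.12, SE 0.27, past the study threshold, adjusted p = 0.123), and was 0.53 higher at 97 kPa/HypOx (SE 0.27). Its part in the root differences was not tested, and in whole roots and shoots a change in the number of cells that express ACO1 cannot be told apart from a change in its RNA per cell.

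In shoots ACO1 passed the study threshold in both atmospheres, and the adjusted p-values did not pass 0.05. The difference from 97 kPa was 1.50 at 25 kPa (SE 0.31, adjusted p = 0.103), 2.82-fold with an interval of 1.79 to 4.45. At 97 kPa/HypOx it was 1.60 (SE 0.34, adjusted p = 0.262), 3.03-fold with an interval of 1.82 to 5.05. The threshold was passed upward by 0.23% of probe sets at 25 kPa and 0.159% at 97 kPa/HypOx, and ACO1 ranked 17 and 13 by the size of its rise. The same differences had adjusted p-values of 0.0149 and 0.0376 when both arrays that stood apart were left out of the fit, a setting added after the data were seen.

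A root marker moved with the shoot samples, and its part in the shoot differences was not tested. BGLU23, a beta-glucosidase abundant in roots, was at 8.76 to 9.41 in shoots at 25 kPa and at 9.62 and 9.87 at 97 kPa/HypOx, against 7.93 to 8.73 at 97 kPa. Its difference from 97 kPa was 1.52 at 97 kPa/HypOx (SE 0.34, adjusted p = 0.318) and 1.04 at 50 kPa (SE 0.30, adjusted p = 0.689), both past the study threshold, and 0.77 at 25 kPa (SE 0.30, adjusted p = 0.494). At 50 kPa, where BGLU23 was 8.76 to 9.79, ACO1 was not called. With oxygen restored BGLU23 was 8.52 to 9.11 at 25 kPa/NormOx and 8.14 to 9.05 at 50 kPa/NormOx, and ACO1 was not called there either. EXPA7, the other root marker with a named probe set, ranged from 4.62 to 5.39 over the same 5 low-oxygen shoot arrays, against 4.36 to 5.24 at 97 kPa.

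**Figure D2:**
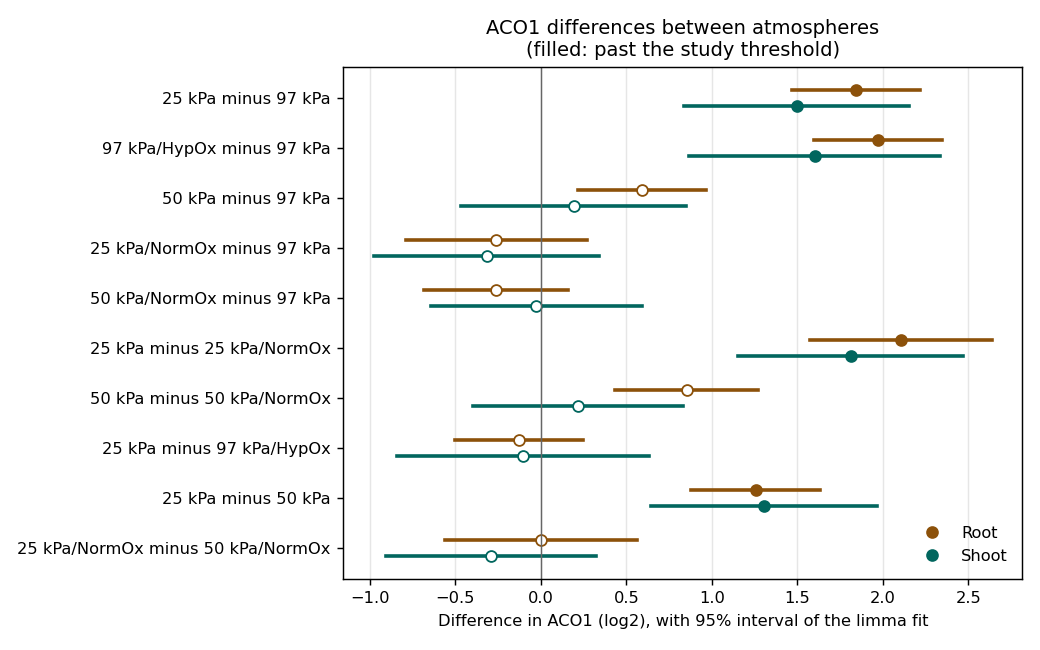
Differences in ACO1 between pairs of atmospheres (log2), from 1 limma fit per organ, with 95% intervals. Filled symbols passed the study threshold. The 3 comparisons that set oxygen near 5 kPa against oxygen at 21 kPa span 1.84 to 2.11 in roots and 1.50 to 1.81 in shoots, and 25 kPa minus 97 kPa/HypOx lies at -0.13 in roots and -0.11 in shoots.

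ACO1 was also higher at 25 kPa than at the same total pressure with oxygen restored. At 25 kPa it was 2.11 higher than at 25 kPa/NormOx in roots (SE 0.24, adjusted p = 0.0244), 4.30-fold with an interval of 2.98 to 6.21, and no probe set had a smaller p-value in this comparison. The study threshold was passed upward by 0.208% of probe sets there. Root 25 kPa/NormOx has 1 array, whose spread the fit takes from the other groups, and this array, at 7.42, lay below all 3 control arrays. In shoots the same comparison gave 1.81 (SE 0.31, adjusted p = 0.0884), past the study threshold, and the 3 arrays at 25 kPa all lay above the 3 at 25 kPa/NormOx. The background there was 0.0839%, and ACO1 ranked 6 by size.

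Low pressure with oxygen at 21 kPa left ACO1 without a call in either organ. In roots it was -0.26 relative to 97 kPa at both 25 kPa/NormOx (95% interval -0.79 to 0.27) and 50 kPa/NormOx (-0.68 to 0.16). In shoots it was -0.32 at 25 kPa/NormOx (-0.97 to 0.34) and -0.03 at 50 kPa/NormOx (-0.64 to 0.59). The intervals allow a fall of up to 0.97, close to the study threshold, and a rise of up to 0.59. Changes of ACO1 with pressure within these limits were not excluded. Upward calls by the study threshold made up 0.0221% of probe sets for Root 25 kPa/NormOx, 0.0486% for Root 50 kPa/NormOx, 0.0486% for Shoot 25 kPa/NormOx and 0.0353% for Shoot 50 kPa/NormOx. Between 25 kPa/NormOx and 50 kPa/NormOx ACO1 differed by 0.00 in roots (-0.56 to 0.56) and by -0.29 in shoots (-0.91 to 0.32).

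With oxygen near 5 kPa, no difference of ACO1 with total pressure was called. In roots 25 kPa minus 97 kPa/HypOx was -0.13 with an interval of -0.50 to 0.25. In shoots the difference was -0.11 with an interval of -0.84 to 0.63. The effect of low oxygen at 25 kPa minus the effect of low oxygen at 97 kPa, as an interaction in the same fit, was 0.13 in roots (SE 0.30, interval -0.51 to 0.78) and 0.21 in shoots (SE 0.46, interval -0.78 to 1.2). The shoot interval is wide, and an interaction of 1 on the log2 scale lies inside it.

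At 50 kPa, where oxygen was at 10 kPa, root ACO1 lay between the levels at 5 kPa and 21 kPa without passing the threshold against its controls. It was 0.59 higher than at 97 kPa (SE 0.17, interval 0.22 to 0.96, adjusted p = 0.315), 1.51-fold, and all 3 arrays exceeded all 3 controls, where 0.353% of probe sets passed the study threshold upward. In this comparison ACO1 ranked only 1123 by size and 364 by p-value. An unadjusted limma p under 0.05 was reached there by 11.2% of probe sets. Root ACO1 was 0.85 higher than at 50 kPa/NormOx (SE 0.19, interval 0.43 to 1.27, adjusted p = 1.0, background 0.0397%). This comparison rested on 2 arrays at 50 kPa/NormOx, and it was 0.51 without replicate 1 of them and 1.19, past the study threshold, without replicate 2 (adjusted p = 0.556). Against 50 kPa, root ACO1 at 25 kPa was 1.26 higher (SE 0.17, adjusted p = 0.101), past the study threshold together with 0.247% of probe sets in that direction.

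In shoots at 50 kPa ACO1 was 0.19 above 97 kPa (interval -0.47 to 0.85) and 0.22 above 50 kPa/NormOx (interval -0.40 to 0.83). Neither was called, with 0.102% of probe sets called upward in the first, which turned to -0.04 without Shoot 50 kPa replicate 2, the highest of the 3 arrays. From 50 kPa to 25 kPa the shoot difference was 1.3 (SE 0.31, adjusted p = 0.877), past the study threshold. Only 0.00442% of probe sets passed it upward in this comparison, which is ACO1 itself.

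**Figure D3:**
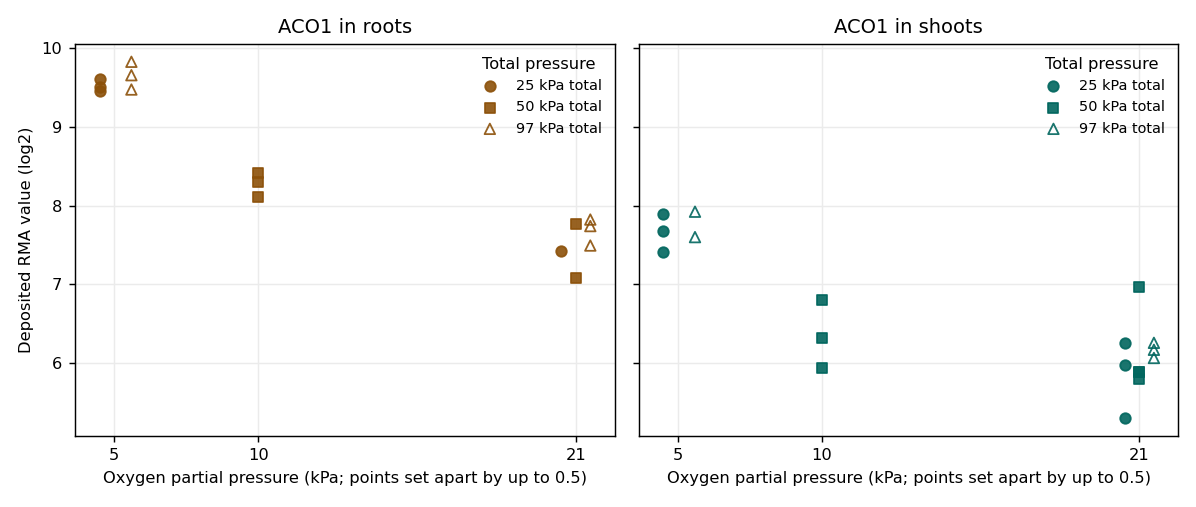
ACO1 on each array (log2) against the oxygen partial pressure of its atmosphere (kPa), in roots (left) and shoots (right), with the symbol giving total pressure; symbols of different pressure are set slightly apart. Arrays with oxygen near 5 kPa group together at 25 kPa and 97 kPa, and those at 10 kPa lie between the others in roots (8.10 to 8.41) but not in shoots (5.94 to 6.80).

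Pooled over total pressure, arrays with low and with normal oxygen did not overlap in ACO1. The 6 root arrays with oxygen near 5 kPa ran from 9.46 to 9.83 (mean 9.59), against 7.08 to 7.82 (mean 7.55) in the 6 with 21 kPa. The means differed by 2.04 (exact permutation test, two-sided, p = 0.00216, the smallest that 6 against 6 arrays can give), and 1.64 separated the nearest arrays. In shoots the 5 low-oxygen arrays ran from 7.40 to 7.92 (mean 7.70), against 5.30 to 6.96 (mean 6.05) in the 10 with 21 kPa. They differed by 1.64 (exact permutation test, two-sided, p = 0.000666, again the smallest possible), and the nearest arrays were 0.44 apart. A test of this kind between single groups of 3 arrays cannot give a p below 0.1. ACO1 was chosen with earlier results of these data known, so these p-values describe the separation and are not independent evidence. They also treat arrays of different atmospheres within an oxygen class as alike. In the corresponding limma contrasts the study threshold was passed upward by 0.291% of probe sets in roots and 0.119% in shoots.

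ACO1 was higher in roots than in shoots in each of the 6 atmospheres. The root mean exceeded the shoot mean by 1.87 at 25 kPa, 1.90 at 97 kPa/HypOx, 1.92 at 50 kPa, 1.58 at 25 kPa/NormOx, 1.29 at 50 kPa/NormOx and 1.52 at 97 kPa. Because the organs were normalized apart, these levels were not tested. After quantile normalization of all arrays together the 6 differences were 1.27 to 1.95. At the same atmosphere, all root arrays exceeded all shoot arrays.

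The response of ACO1 to low oxygen was not shown to differ between organs. In a fit of all 33 arrays, the root response minus the shoot response was 0.35 at 25 kPa (SE 0.37, interval -0.42 to 1.12, adjusted p = 0.713) and 0.37 at 97 kPa/HypOx (SE 0.40, interval -0.45 to 1.19, adjusted p = 0.994). It was 0.40 at 50 kPa (interval -0.37 to 1.17), -0.24 at 50 kPa/NormOx (-1.03 to 0.56) and 0.06 at 25 kPa/NormOx (-0.89 to 1.00). None was called, and the intervals at low oxygen allow a root response larger by up to 1.12 and 1.19 or smaller by up to 0.42 and 0.45. A root response larger than that of shoots by the study threshold was called for 0.645% of probe sets at 25 kPa and 0.344% at 97 kPa/HypOx.

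Little of the rest of the ethylene pathway could be named on the array. Of 62 genes in 8 lists (ACC oxidases, ACC synthases, their turnover, S-adenosylmethionine synthases, methionine salvage, receptors, signalling and output), 7 had a probe set of their own in the platform annotation and 3, ACO1 included, were named by tables of the study. Those tables hold only genes the study called on these arrays, so members named by them are not independent evidence of a response. For the ACC synthases, which make the substrate of ACO1, for the regulators of their turnover and for the S-adenosylmethionine synthases no probe set was named, and they were not analysed here.

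ACO3, the 1 other ACC oxidase with a named probe set, was not called in any comparison with 97 kPa. Its root values were 4.81 to 5.10 at 25 kPa, 4.70 to 4.95 at 97 kPa/HypOx and 4.60 to 5.31 at 97 kPa, with differences from 97 kPa of 0.08 (interval -0.35 to 0.50) and -0.06 (-0.48 to 0.37). In shoots the differences were -0.01 at both 25 kPa (-0.20 to 0.18) and 97 kPa/HypOx (-0.22 to 0.20). The shoot values of ACO3 were 3.93 to 4.31 over all atmospheres, low on arrays with a minimum of 3.31 and a median of 5.14. The median of root arrays was 5.12. No detection limit was set, so the lack of calls does not show that ACO3 is unresponsive. The difference between ACO1 and ACO3 was not tested, as levels of separate probe sets are not on a common scale.

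Of the 9 ethylene genes other than ACO1, 1 was called in roots and 1 in shoots, each at both 25 kPa and 97 kPa/HypOx, where upward calls took 0.83% and 0.601% of all probe sets in roots and 0.23% and 0.159% in shoots. HCHIB, a basic chitinase long used as a marker of ethylene output, gave 8.27, 7.97 and 8.18 in roots at 25 kPa and 7.78, 8.17 and 8.11 at 97 kPa/HypOx, against 6.72, 6.75 and 7.41 at 97 kPa. It was 1.18 higher at 25 kPa (SE 0.19, adjusted p = 0.0226) and 1.06 higher at 97 kPa/HypOx (SE 0.19, adjusted p = 0.036) than at 97 kPa. With oxygen restored its values stayed above the control mean, with differences of 0.79 at 50 kPa/NormOx (SE 0.21, adjusted p = 0.581) and 0.45 on the single array at 25 kPa/NormOx, neither of them called. The group means of ACO1 lay below its control mean there, but Root 50 kPa/NormOx replicate 2, at 7.76, lay above that mean of 7.68. The difference between HCHIB and ACO1 was not tested. Without Root 97 kPa replicate 1 the difference of HCHIB at 97 kPa/HypOx was 0.94, below the study threshold.

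In shoots the called gene was ARD3, an acireductone dioxygenase of the methionine salvage cycle, which recovers methionine from a by-product of ACC synthesis. It gave 9.65, 9.32 and 8.96 at 25 kPa and 9.81 and 8.74 at 97 kPa/HypOx, against 8.09, 7.83 and 8.21 at 97 kPa. The differences were 1.27 (SE 0.34, adjusted p = 0.209) and 1.24 (SE 0.38, adjusted p = 1.0), past the study threshold only, and in roots the same gene was 0.32 at 25 kPa (SE 0.17) and 0.36 at 97 kPa/HypOx (SE 0.17). Both HCHIB and ARD3 were named by the study's tables. The other 7 genes, all named by the platform annotation (ACO3, ARD4, RTE1, EIN3, ETP2, PDF1.2 and ARL), had no call in any of the 10 comparisons with 97 kPa, and they went both ways. At 25 kPa their differences were -0.63 to 1.07 in roots (median 0.09) and -0.54 to 0.43 in shoots (median -0.01), where the medians of all probe sets were 0.01 and -0.01. Some of these probe sets were dim. PDF1.2 was at 4.70 to 5.03 on all root arrays, below their median of 5.12, and ACO3 was low in shoots. A lack of calls for such probe sets does not show that the genes are unresponsive.

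**Figure D4:**
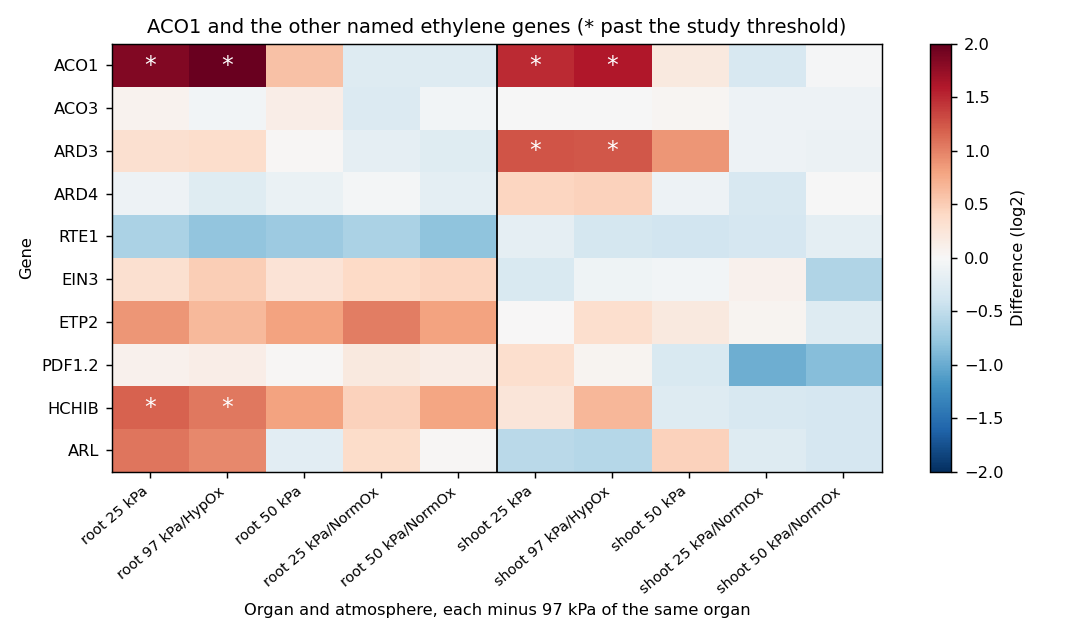
Differences from 97 kPa of the same organ (log2, colour) for ACO1 and the 9 other ethylene genes with a named probe set, in roots (left of the line) and shoots (right), with an asterisk past the study threshold. ACO1 has 2 asterisks in each organ (1.84 and 1.97 in roots, 1.50 and 1.60 in shoots), HCHIB has 2 in roots and ARD3 has 2 in shoots.

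The genes whose pattern was most like that of ACO1 were mostly genes of low oxygen. Likeness was Pearson's r of the log2 values over all 33 arrays, after the mean of the 6 group means of each organ was subtracted, over 13633 other genes with a probe set of their own. These points share arrays, atmospheres and normalization, so r is a description. The 10 highest were AT3G03270, a universal stress protein (0.967), AHB1, a haemoglobin that scavenges nitric oxide (0.938), SUS4, a sucrose synthase (0.905), AT3G29970, a B12D family protein (0.893), SAD6, an acyl carrier protein desaturase (0.891), TIL, a temperature-induced lipocalin (0.890), PCO1, a plant cysteine oxidase of oxygen sensing (0.888), AT4G33560, a wound-responsive family member (0.878), AT2G31390, a carbohydrate kinase (0.853), and ADH1, the alcohol dehydrogenase of fermentation (0.843). Of the 10, 6 were in the low-oxygen or oxygen sensing lists and 5 were named only by the study's tables. Only 213 probe sets were named that way, all of them for called genes. The lists were chosen with earlier results of these data known. The median r over all probe sets was -0.02, and 8 of the 10 remained with Spearman's rho and 8 without both arrays that stood apart.

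At the other end were AT1G24360 (-0.762), ACLA-1, a subunit of ATP citrate lyase (-0.762), AT3G17160 (-0.721), AT1G42960 (-0.707) and AT1G80170 (-0.706). Their differences from 97 kPa at low oxygen were small, -0.23 to -0.55 in roots and -0.55 to 0.01 in shoots, and none was called. Of the ethylene genes, ARD3 (0.726) and HCHIB (0.643) were most like ACO1, and ACO3 had an r of 0.109.

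AT3G03270, the gene most like ACO1, followed it in both organs. Its root values at 25 kPa were 10.83 to 11.11, against 8.51 to 8.94 at 97 kPa, and its shoot values were 8.37 to 8.57, against 6.98 to 7.11. The differences from 97 kPa were 2.3 (SE 0.24, adjusted p = 0.00229) in roots and 1.39 (SE 0.22, adjusted p = 0.0323) in shoots. Its r with ACO1 was 0.976 within the 15 root arrays and 0.965 within the 18 shoot arrays, and for AHB1 these were 0.945 and 0.934.

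Most genes of this pattern were called in roots and fewer in shoots. In roots 9 of the 10 passed the study threshold at 25 kPa (0.83% of all probe sets) and 9 at 97 kPa/HypOx (0.601%), with median differences of 2.38 and 2.50, where ACO1 was at 1.84 and 1.97. In shoots 3 passed at 25 kPa (0.23% of all) and 7 at 97 kPa/HypOx (0.159%), with medians of 0.91 and 1.40, where ACO1 was at 1.50 and 1.60. As these genes were picked for their likeness to ACO1 on the same arrays, the counts describe them and test nothing. SUS4 is an example, with root values at 25 kPa of 9.77 to 9.91, against 6.87 to 7.69 at 97 kPa, but shoot values of 5.96 to 6.33, against 5.18 to 5.59.

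**Figure D5:**
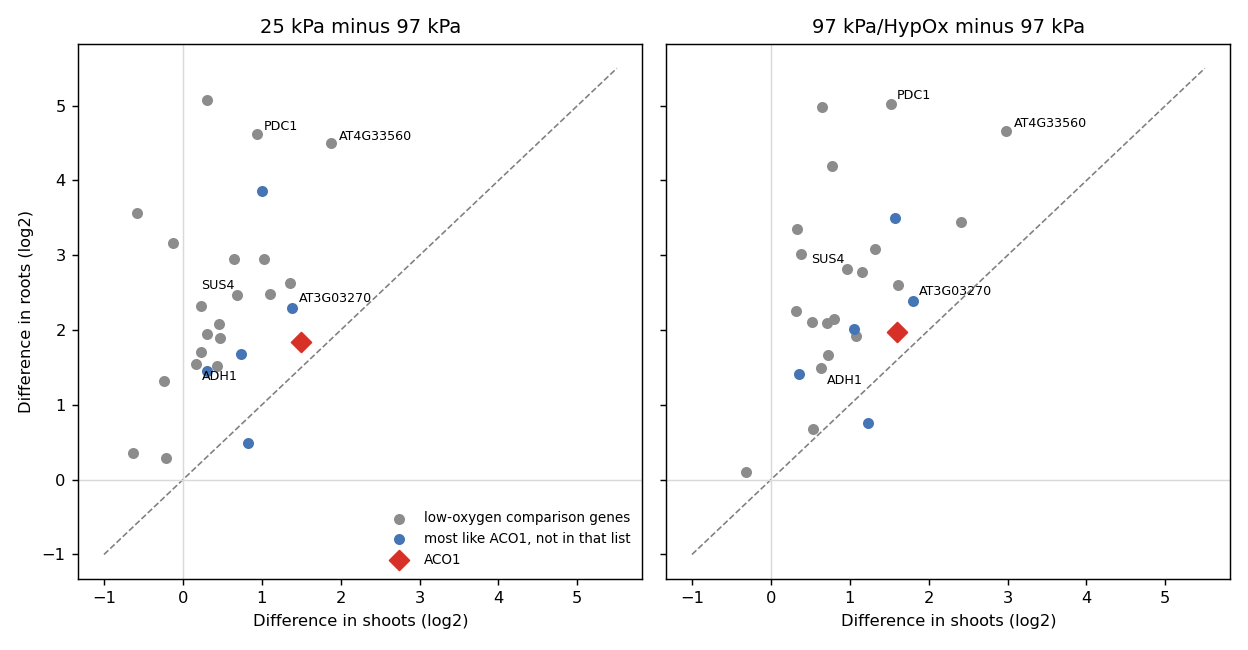
Difference from 97 kPa (log2) in roots against that in shoots, at 25 kPa (left) and 97 kPa/HypOx (right), for ACO1, the low-oxygen comparison genes and the other genes most like ACO1. On the dashed line both organs respond equally. ACO1 lies near it (1.84 against 1.50 at 25 kPa), and most of the other genes lie above it, such as PDC1 with 4.62 against 0.94.

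Set beside 20 known low-oxygen genes, ACO1 was below the median difference of the list in roots and above it in shoots. In roots 18 of the 20 passed the study threshold upward at 25 kPa, beside 0.83% of all probe sets, and 18 at 97 kPa/HypOx, beside 0.601%, with medians of 2.40 and 2.69, beside 1.84 and 1.97 for ACO1. In shoots 2 of the 20 passed at 25 kPa (AHB1 and AT4G33560), beside 0.23% of all, and 5 at 97 kPa/HypOx, beside 0.159%, with medians of 0.37 and 0.75, beside 1.50 and 1.60 for ACO1. ACO1 and 8 of the 20 were named by the study's tables, which list called genes only.

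Root minus shoot differences of most of these genes were above that of ACO1, with oxygen low and with oxygen at 21 kPa. At 25 kPa the root minus shoot difference was larger than the 0.35 of ACO1 in all 20, with a range of 0.50 to 4.77, and 14 of the 20 passed the study threshold, beside 0.645% of all probe sets. PDC1, a pyruvate decarboxylase of fermentation, had a difference of 3.67 (SE 0.54, adjusted p = 0.00372) and ADH1 had 1.39 (SE 0.23, adjusted p = 0.00777). At 97 kPa/HypOx 19 of the 20 lay above the 0.37 of ACO1, and 7 passed, beside 0.344%. In the atmospheres with oxygen restored, 17 of the 20 lay above ACO1 at 25 kPa/NormOx (median 0.39, ACO1 0.06) and 16 at 50 kPa/NormOx (median 0.55, ACO1 -0.24). All these differences rest in part on Root 97 kPa replicate 1, and those at 50 kPa/NormOx also on Shoot 50 kPa/NormOx replicate 1. Without both of these arrays, which stood apart, the -0.24 of ACO1 was 0.11, and the counts were not repeated. No test set ACO1 against these genes.

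Of the genes of oxygen sensing, 4 of 13 were named, all by the study's tables. Those tables list called genes only, so the calls of these 4 are not independent evidence of a response. The transcription factors HRE1 and HRE2 and the oxidases PCO1 and PCO2 had root differences from 97 kPa of 2.3, 1.11, 1.68 and 0.89 at 25 kPa and of 2.64, 1.65, 2.02 and 1.33 at 97 kPa/HypOx. HRE1 and PCO1 passed at 25 kPa, beside 0.83% of all probe sets, and all 4 passed at 97 kPa/HypOx, beside 0.601%. In shoots PCO1 alone passed, at 97 kPa/HypOx (1.06, SE 0.28, adjusted p = 0.673), and HRE1 was 0.20 at 25 kPa (SE 0.17) and 0.39 at 97 kPa/HypOx (SE 0.19). HRE1 had r with ACO1 of 0.901 within roots and 0.139 within shoots.

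On the chromosome, ACO1 lies between TET2, a tetraspanin, and KEA4, a potassium antiporter, among the protein-coding genes of the RefSeq annotation of TAIR10.1. TET2 was not called, with root differences from 97 kPa of 0.71 at 25 kPa (SE 0.27, adjusted p = 0.297) and 0.68 at 97 kPa/HypOx (SE 0.27, adjusted p = 0.42), and shoot differences of -0.09 (SE 0.15) and 0.08 (SE 0.16). KEA4 had no named probe set. AT2G19610, the next gene after KEA4 with one, differed by 0.15 and 0.04 in roots and by 0.05 and -0.02 in shoots.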

How the data were processed

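RNA from roots and shoots was hybridised to Affymetrix ATH1 arrays, 33 in all. The authors deposited log2 values after Robust Multi-chip Average normalization, made for roots and for shoots apart, and these were used as given. Of 22746 probe sets, 100 of organelle genes were left out and 22646 were tested. The platform annotation gave 13513 probe sets 1 gene, 503 several and 8730 none, and 213 more were named by tables of the study, which list called genes only.

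One limma fit (limma 3.58.1, R 4.3.3) per organ held its 6 groups, with p-values adjusted by Benjamini-Hochberg over all probe sets. One fit of all 33 arrays gave root minus shoot responses. Pooled oxygen classes were compared by exact permutation (scipy 1.17.1). The text names ACO1, the measured members of fixed gene lists, the 10 genes with the highest and the 5 with the lowest correlation with ACO1, and its neighbours. ACO1 and the lists were chosen with earlier results of these data known. Alternatives covered normalization, probe filters, variance models, array weights, a replicate block, the call rule and each array left out. The fits were tested on simulated data. Depth has no counterpart for arrays, and their number limits the precision.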

Additional observations from a re-analysis of the deposited data

Results flagged for a closer look

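Shoots at 50 kPa/NormOx were the only group with 4 arrays, and 12 genes were examined there for a single outlying array. For 2 of them replicate 1 lay high enough to pass Dixon's critical value. Chance passes it in about 1 of 20 separate groups, but these 12 genes share the same 4 arrays, so that rate is no guide to their number. The gap of this array to the nearest other, as a share of the range of the group, was 0.924 for ACO1 and 0.851 for SUS4. It is the shoot array that stood apart over all probe sets.

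Among ACO1 and the genes most like it, 6 had a root response that differed from the shoot response by the study threshold in the fit of all arrays. A larger root response was called for 0.645% of all probe sets at 25 kPa, 0.344% at 97 kPa/HypOx and 0.256% at 50 kPa. At 25 kPa the root response was larger by 1.78 for SUS4, 2.85 for AT3G29970, 1.92 for SAD6, 1.14 for TIL, 2.62 for AT4G33560 and 1.39 for ADH1. At 97 kPa/HypOx it was larger by 1.85 for SUS4 and 1.05 for TIL, and at 50 kPa by 1.02 for SUS4. ACO1 was not among them.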

How the results depend on the processing

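The differences of ACO1 at oxygen near 5 kPa kept their direction and their call by the study threshold under every alternative of normalization, probe filter, variance model and array weight, and with each array left out. In roots they ranged from 1.75 to 1.91 at 25 kPa and from 1.87 to 2.06 at 97 kPa/HypOx, and in shoots from 1.38 to 1.62 and from 1.44 to 1.76, as single arrays were left out.

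With an adjusted p under 0.05 as the rule, calls were lost for ACO1 in roots at 25 kPa against 50 kPa (1.26) and in shoots at 25 kPa (1.50), at 97 kPa/HypOx (1.60), against 25 kPa/NormOx (1.81) and against 50 kPa (1.3), and the ethylene list had 0 calls in shoots at 25 kPa and 0 at 97 kPa/HypOx. Whether replicate numbers pair the arrays was not settled, and the main fits did not use them. The shoot 50 kPa array titled replicate 2 is described as replicate 3 in its record, and the title was used. Deviations from group means correlated over 0.1 in 13 of 26 same-numbered pairs within roots, against 14 of 52 pairs of different number. Across organs this held for 6 of 13 against 4 of 28, and within shoots for 12 of 40 against 31 of 94. With the replicate block, shoot ACO1 turned to 0.0563 at 50 kPa/NormOx against 97 kPa and to 0.0482 at 25 kPa against 97 kPa/HypOx, root minus shoot at 25 kPa/NormOx turned to -0.0407, and the ethylene list had 2 calls in roots at 25 kPa and 0 in shoots at 97 kPa/HypOx. Array weights turned shoot 25 kPa against 97 kPa/HypOx to 0.0672 and root minus shoot at 50 kPa/NormOx to 0.14. Without both outlying arrays the last was 0.11, and the list had 0 calls in roots at 97 kPa/HypOx. Exact permutation tests of 3 against 3 arrays cannot give a p below 0.1, and those of 2 against 3 arrays cannot give one below 0.2. In roots, 25 kPa against the 25 kPa/NormOx and 50 kPa/NormOx arrays together gave 2.11 (exact permutation test, p = 0.1). At 97 kPa the difference was 1.97 in roots (exact permutation test, p = 0.1) and 1.60 in shoots (exact permutation test, p = 0.2). The low-pressure test in shoots, which has more arrays, left the pooled result unchanged.

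Leaving out single arrays moved small differences across 0 or the threshold. In roots ACO1 ranged from -0.60 to 0.0758 at 50 kPa/NormOx against 97 kPa, from 0.51 to 1.19 at 50 kPa against 50 kPa/NormOx and from -0.34 to 0.34 between the NormOx groups. In shoots it ranged from -0.0352 to 0.40 at 50 kPa and from -0.30 to 0.0858 at 50 kPa/NormOx against 97 kPa, from -0.0092 to 0.49 at 50 kPa against 50 kPa/NormOx, from -0.27 to 0.0562 at 25 kPa against 97 kPa/HypOx and from -0.0612 to 0.42 for the interaction. Root minus shoot ranged from -0.22 to 0.26 at 25 kPa/NormOx and from -0.58 to 0.10 at 50 kPa/NormOx. Calls in the ethylene list ranged from 1 to 3 and from 0 to 3 in roots at 25 kPa and 97 kPa/HypOx, and from 0 to 1 in shoots at each. The cause was not tested. The single root array at 25 kPa/NormOx could not be left out, and groups of 1 to 4 arrays limit every interval.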
